A study of Mus musculus with 4 samples.

Results

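The acid-sensing ion channel genes Asic1, Asic2, Asic3 and Asic4 were described by the chromatin enriched around them in an immunoprecipitation of tagged thyroid hormone receptor from mouse striatum. A peak, meaning a region called as enriched, was counted for a gene when its summit lay within the RefSeq span of the gene or within 30 kb on either side. By this rule 15 of the 7484 deposited peaks belonged to the 4 genes, with 7 at Asic1, 4 at Asic2, 2 at Asic3 and 2 at Asic4. Among all 21887 protein-coding genes, 32.4% had a peak by the same rule. The genes were picked with these peaks already known, so the values below are a description and carry no test.

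The series holds 1 input library, made without antibody, and 3 immunoprecipitated (IP) fractions recovered on IgG-coated magnetic beads, all from striatum. Per the title, the recovered protein is TRα1, a thyroid hormone receptor, carrying the GS tag, in mice that combine Gad2-Cre with a ThraGS allele. Gad2-Cre is a driver line for GABAergic neurons, the class to which most striatal neurons belong, and the input came from the same kind of tissue. Ages, sexes and animals per library are not stated in the labels. No untagged control IP was analysed here, so recovery by the beads alone was not measured. The deposited data are 1 peak list for the whole series, with no value per library, so the spread between the 3 fractions cannot be given.

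Acid-sensing ion channels are trimeric sodium channels of the degenerin and epithelial sodium channel family that open when the extracellular pH falls. ASIC1 is the main acid sensor of central neurons, where it contributes to synaptic currents and to injury during acidosis. ASIC2 assembles with ASIC1 and tunes its trafficking and kinetics, ASIC3 is known above all from sensory neurons, and ASIC4 forms no proton-gated channel by itself. Thyroid hormone receptors bind DNA mostly as heterodimers with retinoid X receptors, on pairs of hexamers related to AGGTCA.

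The sequences before 2 annotated starts are shown because they belong to the starts nearest to the 2 strongest peaks of the family. The first is the stretch before the Asic1 start, which lies between peaks but under none of them. The second is the stretch before the start of Tmub1, at the edge of the Asic3 window, the single start region in the 4 windows that a peak overlapped. Both hold the 250 bases upstream of the start, from RefSeq on GRCm38.p6, written 5′ to 3′ on the gene's strand. Capitals mark the hexamer AGGTCA in the first and the E-box CACGTG, a site type of clock and other bHLH factors, in the second.
Asic1, chr15:99691974-99692223, plus strand: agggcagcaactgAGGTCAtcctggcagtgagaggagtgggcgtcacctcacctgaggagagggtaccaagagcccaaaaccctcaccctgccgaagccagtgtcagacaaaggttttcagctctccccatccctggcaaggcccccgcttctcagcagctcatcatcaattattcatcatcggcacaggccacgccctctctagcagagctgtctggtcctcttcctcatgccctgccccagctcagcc
Tmub1, chr5:24447847-24448096, minus strand: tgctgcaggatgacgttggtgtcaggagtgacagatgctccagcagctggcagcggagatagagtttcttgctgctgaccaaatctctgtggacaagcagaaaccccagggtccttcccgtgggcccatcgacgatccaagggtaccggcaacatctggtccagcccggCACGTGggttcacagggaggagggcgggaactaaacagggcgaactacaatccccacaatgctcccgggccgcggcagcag

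The AGGTCA of Asic1 began 237 bases before the start. This hexamer occurred on either strand in 14.0% of 32851 RefSeq start regions of the same 250 bases. Neither 2 copies in the same direction with 4 bases between (DR4), nor facing copies without a spacer (IR0), nor back-to-back copies with 6 between (ER6) were found in any of the 250-base regions before the Asic1, Asic2, Asic3 and Tmub1 starts. Exact DR4 pairs were found in 5 of the 32851 regions. The regions before the 2 listed Asic2 starts and the Asic3 start held no AGGTCA and no E-box. The E-box of Tmub1 began 81 bases before the start, and 6.02% of all start regions held one. The peak at Tmub1 covered the 74 bases nearest to its start, so the E-box lay just beyond the peak's edge.

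Asic1 lies on chromosome 15 from 99670197 to 99701130, a span of 30.9 kb on the plus strand. Of its 7 summits, 5 lay inside the span and 1 just beyond each end. They sat at the lower end of the gene and, after a stretch of 17424 bp without a summit, from 18661 bp above the lower end up to the upper end. RefSeq's table of start regions lists 1 start for Asic1, at 99692224, which is 22027 bp above the lower gene end and 8906 bp below the upper one. On the plus strand the lower end is the upstream end of the span, yet the table lists no start there. Distances to an Asic1 start below are to the listed one alone, also where the start of another gene is nearer. Fold enrichment here is the authors' ratio of the pileup to a background, after adding 1 to each. The pileup is the height of stacked fragments at the summit. The background is called local below, though at some peaks it is near the lowest value of the whole list. The intervals given with the fold are 95% exact Poisson intervals for the fragments at the summit. They cover the counting error at the summit only and treat the background as known exactly. They also take no account of the fact that a region enters the list because its count is high.

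The strongest peak, at chr15:99688692-99689025, had its summit 3366 bp upstream of the listed start. Its fold was 21.4 (interval 17.3 to 26.1), from a pileup of 87.3, or 93 fragments, over a background of 3.13. It ranked 215 in the list, within the top 2.87%. Its interval lay above those of all the other 6 peaks in the Asic1 window.

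A pair of peaks marked the lower end of the gene, which is the upstream end of its span. One at chr15:99671257-99671676, 1237 bp inside the span and 20790 bp upstream of the listed start, had a fold of 11.3 (interval 7.96 to 15.6) from 35 fragments. The other, at chr15:99668644-99668915, lay 1395 bp outside the span with a fold of 6.52 (interval 4.07 to 9.99) from 19 fragments. Its summit fell in the long non-coding RNA gene Gm34880, 1054 bp downstream of that gene's start. The same Gm34880 start was also the nearest to the summit of the 11.3-fold peak, which lay 1578 bp upstream of it. The 2 summits were 2632 bp apart, and their intervals overlapped.

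The 4 remaining summits followed downstream of the listed start, at 2780, 5660, 6604 and 10429 bp. The highest of them, at chr15:99697751-99698224, had a fold of 11.5 (interval 8.56 to 15.2) from 48 fragments and was also the widest of the family at 474 bp. Its neighbour 944 bp away had a fold of 5.22 (interval 3.07 to 8.39) from 15 fragments, the lowest of the 7. The peak at 2780 bp, chr15:99694787-99695154, had a fold of 6.21 (interval 4.31 to 8.68). The last summit, at chr15:99702560-99702821, lay 1523 bp beyond Asic1 and 366 bp downstream of the start of Smarcd1, a subunit gene of the SWI/SNF chromatin remodelling complex, with a fold of 6.85 (interval 4.32 to 10.4). The span of the long non-coding RNA gene Gm34939 also held this summit. The Smarcd1 start was also the nearest listed start to the summits at 5660 and 6604 bp, which lay 4403 and 3459 bp upstream of it. Fold and pileup did not give the same order here. The peak at 2780 bp held 32 fragments, close to the 35 at the lower gene end, but its background was near 4 against near 2, and its fold was 6.21 against 11.3.

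**Figure D1:**
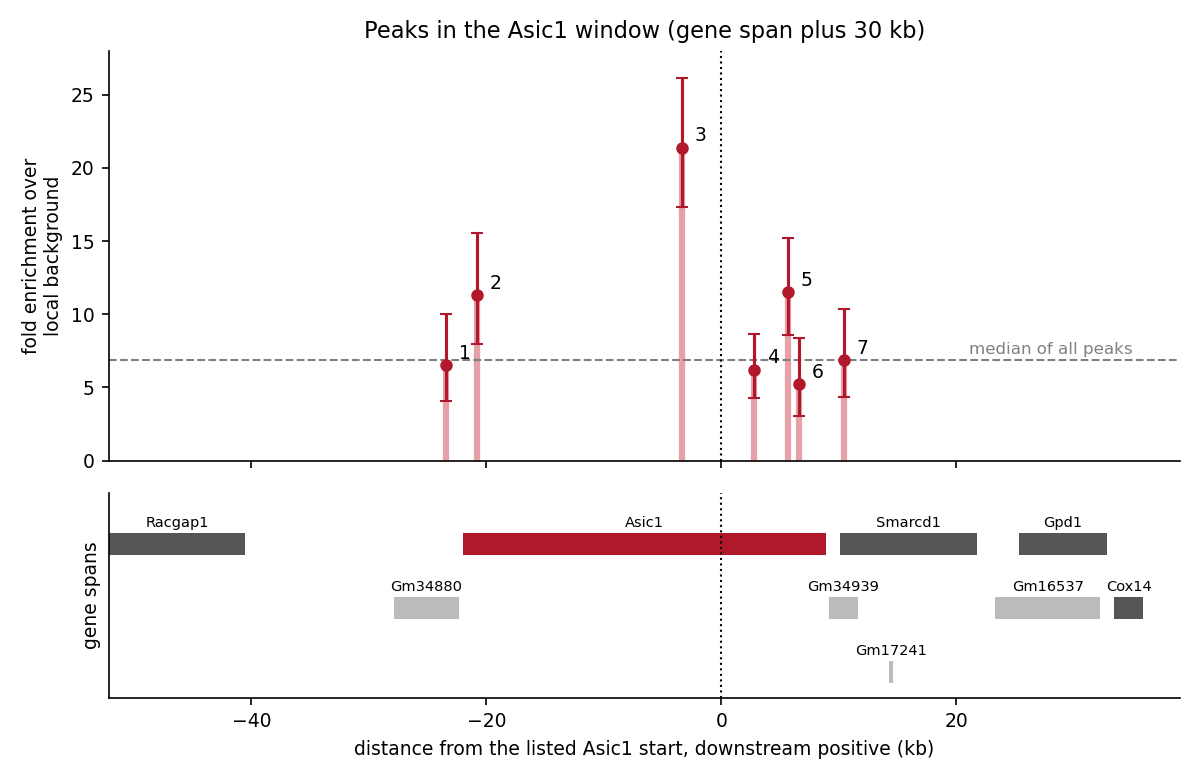
Fold enrichment over local background (vertical axis) of the 7 peaks in the Asic1 window against the distance of each summit from the listed Asic1 start in kb (horizontal axis), with gene spans below in red for Asic1, dark grey for other protein-coding genes and light grey for other genes. Bars are 95% Poisson intervals, the dashed line is the median fold of all 7484 peaks, the numbers give the order along the chromosome, and peak 3, at 21.4, stands above the others.

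The local background, recovered from pileup and fold, was about 3 or higher at 3 of the 7 Asic1 peaks, those at 3366 bp upstream and at 2780 and 5660 bp downstream of the start. It was about 3 or higher at 23.9% of all peaks, and the lowest value in the list was 1.89. Near this lowest value were the backgrounds of the Asic1 summits 23422 bp upstream and 6604 and 10429 bp downstream of the start. Those of the strongest Asic2 peak and of the Tmub1 peak were near it too, so the value is not particular to 1 locus. How many input fragments lie behind a background was not derived. The part of the background in the height of these peaks was not tested. By fold, 3 of the 7 Asic1 peaks were above the upper quartile of the list (9.73), 4 were below its median of 6.91, and their own median of 6.85 was close to it. At least 1 peak with a fold of 20 or more, as at Asic1, was found for 1.97% of protein-coding genes.

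The 7 summits spanned 33.9 kb, and 6 of them had another summit within 5 kb. Over the whole list 12.6% of peaks had a neighbour that close, and the median distance to the nearest other peak was 54257 bp. The next peaks lay 70.6 and 133.0 kb below the gene, with folds of 6.59 and 5.22, and 395.7 kb above it, with a fold of 6.40. Other genes share the cluster, because their own windows reach into it. The window of Smarcd1 held 5 peaks, that of Gpd1, the glycerol-3-phosphate dehydrogenase gene, also 5, and those of Racgap1, a gene of cell division, and Cox14, a cytochrome oxidase assembly gene, 3 each. Of the 3 at Racgap1, 1 was the peak 70.6 kb below Asic1, which is not part of the cluster. The spans of Racgap1, Gpd1 and Cox14 held no summit and that of Smarcd1 held 1, against 5 in Asic1. The non-coding RNA genes Gm34880 and Gm34939 each held 1 summit in the span and 6 in the window. Which of these genes a peak acts on was not measured.

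Asic2 lies on chromosome 11 from 80880163 to 81968396 on the minus strand, so the upper end is one of its starts. With a span of 1088 kb it is by far the longest of the 4 genes, and all 4 of its peaks were inside. The strongest, at chr11:81941034-81941379, lay 27200 bp downstream of the start at 81968396, with a fold of 15.3 (interval 11.3 to 20.3) from 46 fragments. It ranked 611 in the list. A pair 5218 bp apart followed at 183220 and 188438 bp downstream of that start, with folds of 7.25 (interval 4.76 to 10.6) and 5.55 (interval 3.32 to 8.79). The last, at chr11:80897272-80897533, was 17222 bp from the far end of the gene, with a fold of 7.11 (interval 4.53 to 10.7). RefSeq lists a second start at 81152903, and the nearest summit to it was 255518 bp downstream. No other gene's span held any of the 4 Asic2 summits, and a stretch of 882573 bp inside the gene was free of summits. At least 4 peaks in the window were found for 1.75% of protein-coding genes.

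Asic3 lies on chromosome 5 from 24413451 to 24417840, only 4.39 kb long, among 7 other protein-coding genes whose spans reach into its window. Neither of its peaks was in the gene or close to it. The peak at chr5:24447571-24447920 lay 29909 bp above the gene, with a fold of 16.9 (interval 12.7 to 22.1) from 51 fragments and rank 446. Its summit was inside Tmub1, a ubiquitin-like membrane protein gene, 97 bp downstream of the start shown above. The peak at chr5:24383508-24383696, 29826 bp below Asic3 in the span of the endothelial nitric oxide synthase gene Nos3, had a fold of 5.19 (interval 3.11 to 8.23) from 16 fragments. Both were thus at the very edge of the window, and a slightly narrower window would have left Asic3 with none. Of the genes with a window of similar width, 26.4% had a peak. Just outside, at 52.4 kb below the gene, was a peak with a fold of 21.5, and at 45.9 kb above it one of 4.57.

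Asic4 lies on chromosome 1 from 75450510 to 75474340, a span of 23.8 kb with no summit inside. Both of its peaks were weak and lay in neighbouring genes. The one at chr1:75479014-75479249 was 4765 bp above Asic4 and 366 bp downstream of the start of Chpf, a chondroitin polymerising factor gene, with a fold of 6.20 (interval 3.81 to 9.59) from 18 fragments. The one at chr1:75487559-75487770 was 13298 bp above Asic4, inside the obscurin-like cytoskeletal gene Obsl1, with a fold of 5.41 (interval 3.49 to 8.07) from 22 fragments. The nearest peaks outside the window were at 63.4 kb below, with a fold of 5.55, and 72.4 kb above, with a fold of 5.65. The latter lay in Slc4a3, a chloride and bicarbonate exchanger gene.

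**Figure D2:**
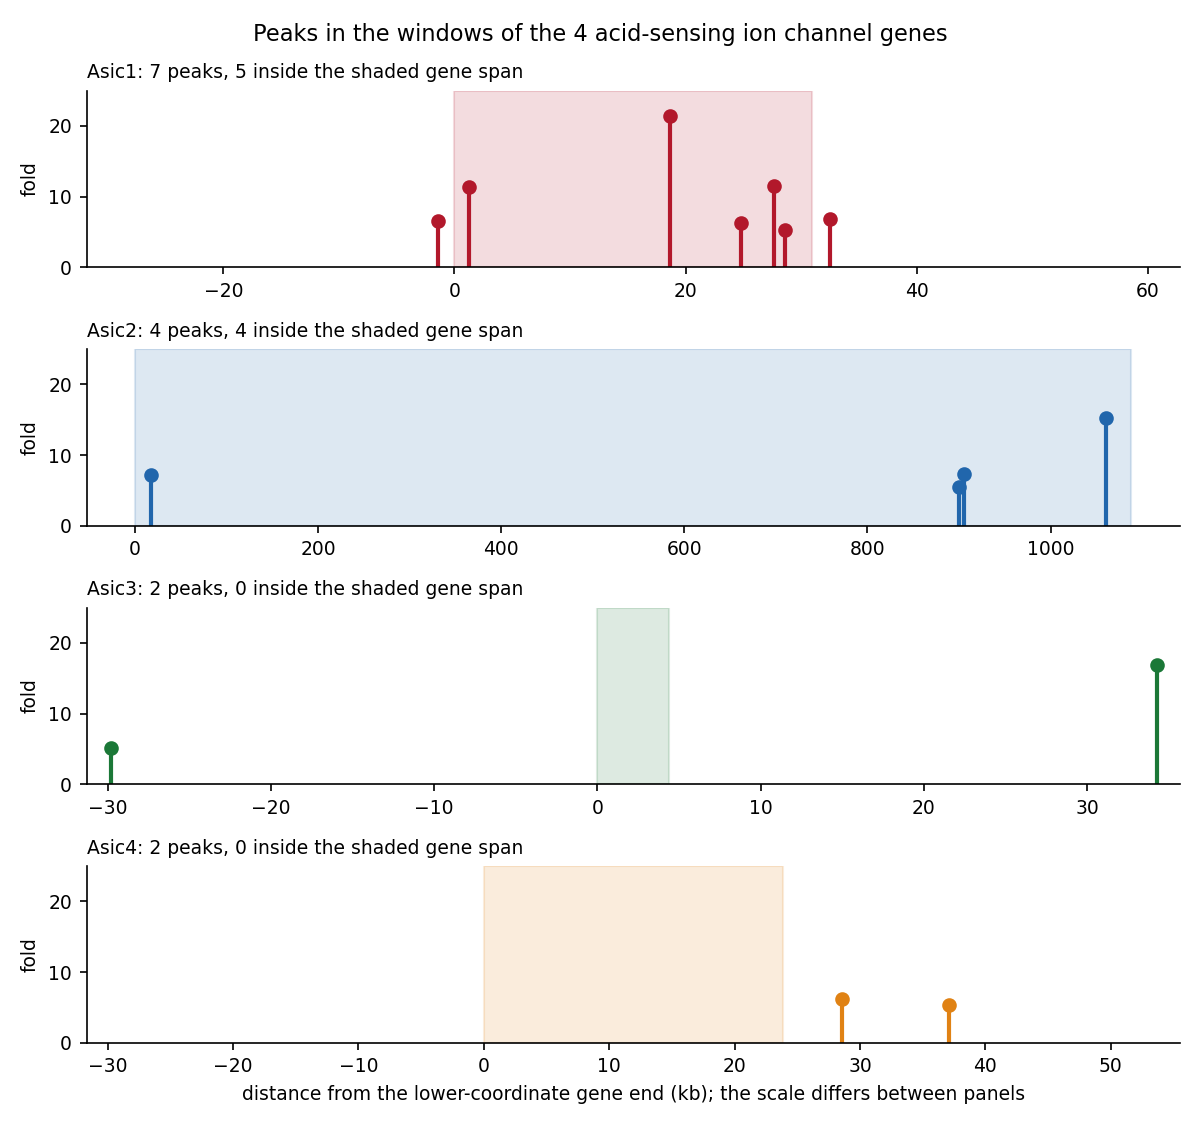
Fold enrichment (vertical axis) of each peak against its distance in kb from the lower-coordinate end of the gene (horizontal axis, with a different scale in each panel) for Asic1, Asic2, Asic3 and Asic4. Shading is the gene span, which held 5 summits in Asic1, 4 in Asic2 and 0 in Asic3 and Asic4, where 13.7% of protein-coding genes held at least 1. The counts are not adjusted for span length, which runs from 4.39 kb for Asic3 to 1088 kb for Asic2.

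Across the family the folds ran from 5.19 to 21.4, with a median of 6.85 against 6.91 for all peaks, and 5 of the 15 reached a fold of 10, against 23.9% of the list. The intervals of neighbours in this order overlapped, which is not a test of whether their folds differ. The interval of the top Asic1 peak (17.3 to 26.1) overlapped that of the Tmub1 peak in the Asic3 window (12.7 to 22.1) and that of the strongest Asic2 peak (11.3 to 20.3). The latter overlapped those of the Asic1 peaks of 11.5 and 11.3. The other 10 peaks, from 7.25 down to 5.19, all had overlapping intervals. Summits within 1 kb of a listed start of any gene numbered 3 of 15, at Smarcd1, Tmub1 and Chpf, against 16.4% of all peaks. None of the 3 starts belonged to a channel gene of the family.

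**Figure D3:**
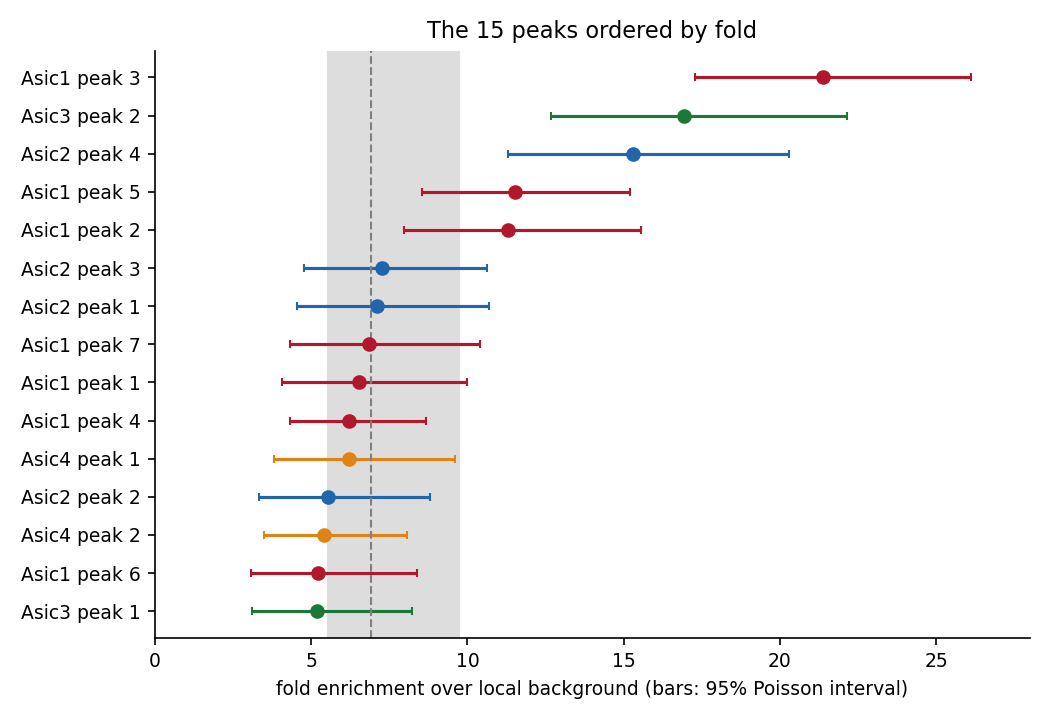
The 15 peaks of the family (vertical axis) ordered by fold enrichment over local background (horizontal axis), coloured by gene, with 95% Poisson intervals as bars. The grey band holds the middle quartiles of all 7484 peaks (5.55 to 9.73) and the dashed line their median (6.91), and 5 peaks lie to the right of the band.

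All 4 genes had a peak in their window, where 32.4% of the 21887 protein-coding genes did. Since the genes were proposed from these peaks, nothing is read from that count. Window width also differed greatly: 90.9 kb for Asic1, 1148 kb for Asic2, 64.4 kb for Asic3 and 83.8 kb for Asic4. Per 100 kb of window, Asic1 had 7.70 peaks (exact Poisson interval 3.09 to 15.9), Asic3 3.11 (0.376 to 11.2), Asic4 2.39 (0.289 to 8.62) and Asic2 0.348 (0.0949 to 0.892). The windows of all protein-coding genes together held 0.396 per 100 kb. These counts chose the genes, so the intervals show the counting error of each density and are not compared. The order depends on the window: with 100 kb on both sides, Asic1 and Asic4 had 8 peaks each, or 3.46 and 3.57 per 100 kb. The 4 peaks of Asic2 were spread over more than 1 Mb. Among the 69 genes of similar width, meaning a window at most 20% narrower or 25% wider than that of Asic2, 78.3% had a peak and 15 had at least 4.

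For Asic1, at least 7 peaks were found for 50 genes, 0.228% of all protein-coding genes, and at least 5 inside the span for 98, or 0.448%. Of 8018 genes with a window of similar width, 32.8% had a peak and 3 had at least 7. These 3 were Asic1 itself, Kcnk1, a two-pore-domain potassium channel gene, and S100pbp, an S100P-binding protein gene. Kcnk1 was named after its value was seen. By density, 19 genes, Asic1 included, were at or above its level. The densest was Gm40364 on chromosome 6, at 12.9 per 100 kb, whose window overlaps those of other Gm genes among the 19. Also among them were Gng7 and Diras1, and Ppp1r1b and Neurod2, which are neighbours on chromosomes 10 and 11 and share peaks. The 19 genes thus stand for fewer separate places. These genes too were named after their values were seen, and the rest of the 19 are not named here. With peaks of −log10 q of at least 10 alone, Asic1 kept 4, a number that 0.393% of genes reached, and with a fold of at least 10 it kept 3, which 0.247% reached. For Asic3 and Asic4, 10.9% of genes had at least their 2 peaks.

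**Figure D4:**
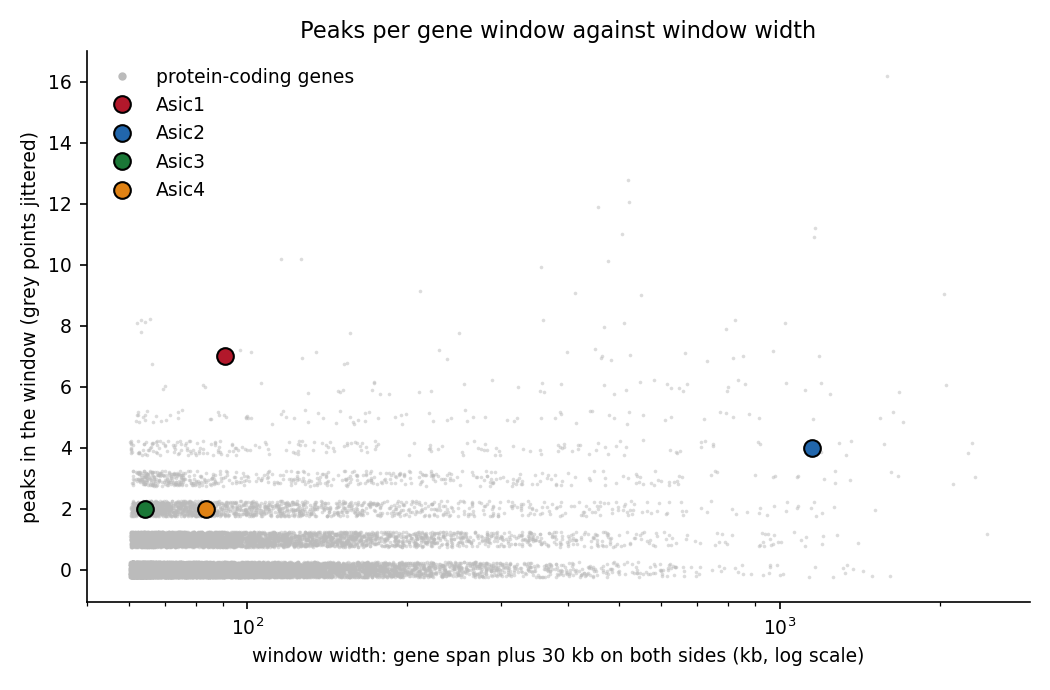
Number of peaks in the window (vertical axis) against window width in kb on a log scale (horizontal axis) for 21887 protein-coding genes in grey, with the 4 channel genes in colour. Asic1, with 7 peaks in 90.9 kb, lies above nearly all genes of its width, while Asic2, with 4 in 1148 kb, lies among genes of its own width.

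Of 21 genes with 7 peaks and none shared with Asic1, those with the most similar set of folds were S100pbp, Diras1 and Bcl11b. Their mean absolute log2 differences from Asic1 over the 7 sorted folds were 0.12, 0.18 and 0.22. The likeness is of folds alone: 4, 0 and 4 of their 7 summits lay inside the gene span, against 5 at Asic1. Diras1 encodes a Ras-family GTPase and Bcl11b a transcription factor of striatal projection neurons. The best fold at S100pbp was 22.8 and its median 6.85, beside 21.4 and 6.85 at Asic1.

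Other genes of acid sensing and pH regulation were taken from a list of 28, chosen by known role. Of these, 11 had a peak, 39.3% beside 32.4% of all protein-coding genes, and the median number of peaks was 0 in the list as among all genes. By group, these were 2 of 4 channel relatives, 2 of 8 other proton sensors, 2 of 7 partners and modulators, and 5 of 9 genes of pH regulation. At least 2 peaks were found for 4 of the 28, and for 10.9% of all protein-coding genes. Of these 4, Slc4a4 and Slc16a7 have wide windows, of 505.8 and 230.3 kb. The shares of all protein-coding genes given here are not matched for window width, so no excess is read from 39.3% beside 32.4%.

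Among the relatives, Asic5, the bile-acid-sensitive member of the family, had no peak. The epithelial sodium channel subunit gene Scnn1g had 2 weak peaks on either side of its start, at 343 bp upstream and 285 bp downstream, with folds of 5.55 and 5.22. Scnn1a had 1 of 4.90 inside the gene, and Scnn1b none. Of the other proton sensors, Pacc1, the proton-activated chloride channel gene, had a fold of 7.82 at 8145 bp upstream of its start, inside the gene Nenf. Kcnk3, an acid-inhibited potassium channel gene, had 7.43 at 12894 bp outside its span. The start nearest to that summit was that of Slc35f6. Gpr4, Gpr65, Gpr132, Otop1, Trpv1 and Kcnk9 had none.

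Among partners of the channels, 2 of 7 had a peak, a share near that of all genes. Pick1, which encodes a PDZ protein that binds ASIC1 and ASIC2, Stom, Stoml1, Akap5 and the dynorphin precursor gene Pdyn had none. Stoml3 had 1 of 6.20, located 135 bp upstream of the start of Proser1, and the neuropeptide FF precursor gene Npff had 1 of 4.90 inside other genes, 25824 bp away.

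Of the 25 peaks at the listed genes, 6 reached a fold of 10, or 24%, beside 23.9% of all peaks. All 6 were at genes of pH regulation, a grouping of these peaks seen after their values and not tested. Slc4a4, the sodium bicarbonate cotransporter gene known from astrocytes, had 11 peaks in a window of 505.8 kb. Its best fold was 21.3 at chr5:88937158-88937779, and 3 more of its peaks, at 15.2, 14.0 and 9.24, lay near it inside the gene. Slc16a7, a monocarboxylate transporter gene of neurons, had a fold of 13.8 inside its span and a second of 5.65. Slc4a8, a neuronal sodium-driven bicarbonate exchanger gene, had a fold of 12.5 at 76 bp upstream of its start. Slc4a3 had 3 peaks of up to 12.0. Car14, a carbonic anhydrase gene, had 1 of 4.09 at 22319 bp outside its span, in C920021L13Rik, while Car2, Car4, Slc4a10 and Slc16a1 had none. Per 100 kb, Slc4a4 had 2.17 peaks and Asic1 7.70.

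**Figure D5:**
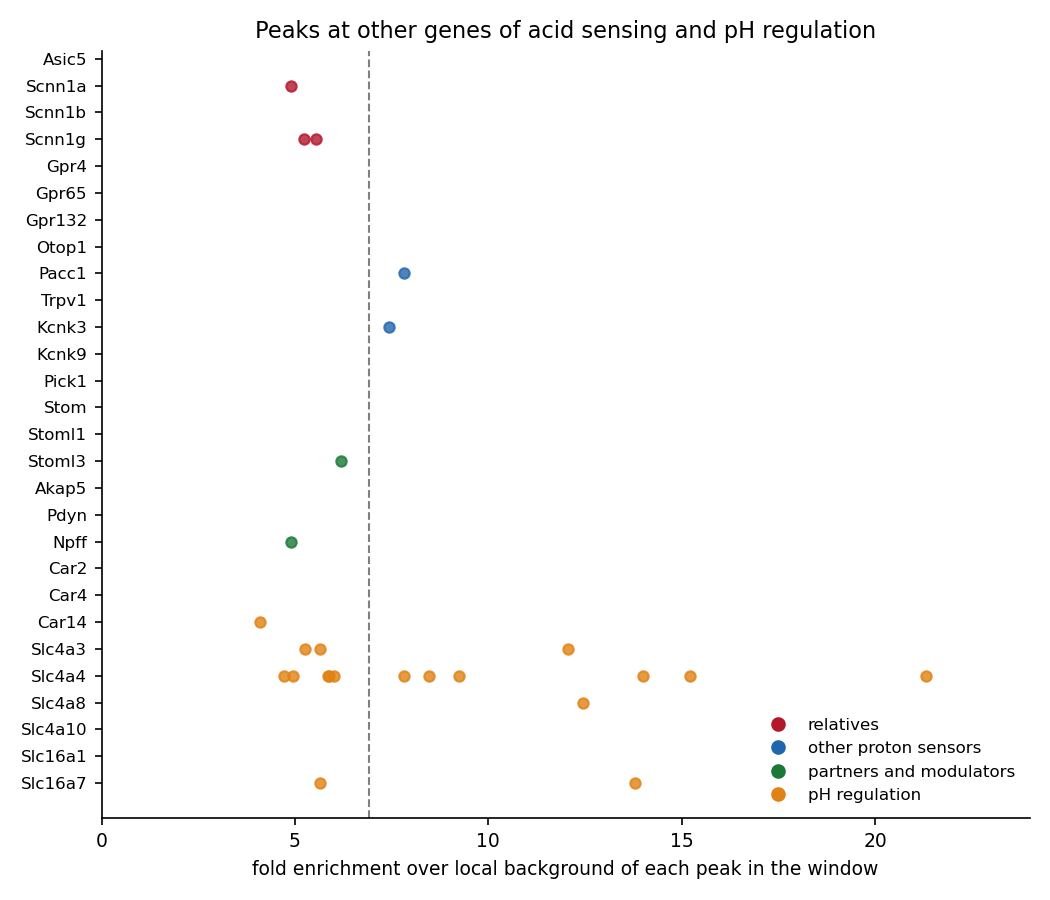
Fold enrichment over local background (horizontal axis) of every peak within 30 kb of each of 28 other genes of acid sensing and pH regulation (vertical axis), coloured by group. The dashed line is the median fold of all peaks (6.91), genes without points had no peak, and Slc4a4 has 11 points reaching 21.3.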

How the data were processed

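Chromatin of mouse striatum was sequenced as 1 input and 3 IP libraries, grouped by their titles. The submitters' processing notes list GRCm38 and mm10 as builds, and as tools MACS2 2.1.1.20160309.0 and Bowtie2 2.3.4.2, giving neither role nor settings. Pooling of the IP fractions before peak calling is neither stated nor denied in the labels. Per the file headers, the 1 deposited list gives the pileup signal at each summit, a fold enrichment (a linear ratio), and p-value and q-value columns. The authors deposited the latter as −log10 values. All are the authors' own values, used within this list alone, to describe and filter its peaks.

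Pileups lay on a grid of step 0.939 (largest residual 0.00504), so pileup divided by the step was taken as the number of stacked fragments, 10 to 305 per summit with a median of 23. Library totals were not used here. The background was recovered as (pileup + 1) / fold − 1, and for 99.9% of peaks the Poisson p that follows differed by under 0.01 from the authors' −log10 value. Reads without molecular identifiers are not independent molecules, so intervals cover counting error only.

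Gene spans came from RefSeq GRCm38.p6 (21887 protein-coding genes) and starts from its table of 32851 start regions, which matched Asic1, Asic2 and Asic3. Exons and introns were not used here. Counting used Python 3.11.15, pandas 2.3.3 and SciPy 1.17.1, and was tested on simulated peaks. The members and gene lists were chosen with earlier results of these data known. Genes named are the 4 members, the genes holding or nearest to their summits, protein-coding genes overlapping the Asic1 window, the 8 listed genes with the highest fold, and the 3 genes most like Asic1. The other listed genes are given for completeness, 2 genes of the planned list are not reported here, and further genes were named after their values were seen. Alternatives were a −log10 q of at least 10, only peaks with a fold above the median, leaving out the 1% widest and 1% highest peaks, windows of 0, 5 and 100 kb, any overlap of the peak, and assignment to the nearest gene.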

Additional observations from a re-analysis of the deposited data

How the results depend on the processing

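With 1 list and no value per library, no replicate could be left out. No paired analysis was possible because the list carries no value per sample. Values not given here stayed within 1.5 times for counts and within the interval of the main value otherwise, and they cover all results under removal of the 1% extremes and under any overlap of the peak. A −log10 q of at least 10 left 3986 peaks. Peak counts were then 4 for Asic1, 2 for Asic2, 1 for Asic3 and 0 for Asic4 (0 per 100 kb), 20.4% of protein-coding genes had a peak, and 6 of the 28 acid-sensing list genes did. Above the median fold, with 3714 peaks, Asic1 had 3, Asic3 1 and Asic4 0, with 19.5% of genes and 6 list genes. In the gene span alone, Asic3 and Asic4 had 0 peaks (0 per 100 kb), 2 of the 4 channel genes had a peak, Asic1 had 16.2 per 100 kb, and 13.7% of genes and 5 list genes had one. With 5 kb on both sides, Asic3 had 0 and Asic4 1, with 19.1% of genes and 6 list genes. With 100 kb, Asic3 had 5 and Asic4 8, and 54.0% of genes had a peak. Asic1 then also had 8, with 3.46 per 100 kb in place of 7.70, so it no longer led Asic4, at 3.57 per 100 kb. With each peak given to its nearest gene, Asic3 and Asic4 had 0, 2 of the 4 channel genes had a peak, and 18.7% of genes and 6 list genes did. At Asic1 the count was 5 to 8 under all settings of window and assignment. The lowest summits of the family hold 15 to 16 fragments, which sets the precision of their folds.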
